A study of Drosophila melanogaster with 3 samples.

Results

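The integrin adhesion genes described here are 8 genes of the fly, 4 for integrin subunits and 4 for the linkers that join integrins to actin. They were taken by gene symbol from a table of 15603 genes, and all 8 were found. The subunit genes are *myospheroid* (*mys*, the beta subunit βPS), *multiple edematous wings* (*mew*, αPS1), *inflated* (*if*, αPS2) and *scab* (*scb*, αPS3). The linker genes are *rhea* (talin), *Vinc* (vinculin), *Ilk* (integrin-linked kinase) and *steamer duck* (*stck*, PINCH). In the BDGP6 annotation *mys*, *mew*, *if* and *Vinc* lie on the X chromosome and the other 4 on autosomes.

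Integrins are receptors of 1 alpha and 1 beta subunit that hold epithelial and muscle cells to the extracellular matrix, and the alpha subunit sets which ligand is bound. In the fly, αPS1 with βPS binds laminin, αPS2 with βPS binds matrix proteins with an RGD motif such as Tiggrin, and αPS3 with βPS binds laminin. Inside the cell, talin binds the tail of the beta subunit and recruits vinculin under tension, while ILK, PINCH and parvin form a complex of their own at the same sites. In imaginal discs integrins sit mostly at the basal side of the epithelium, facing the basement membrane.

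RNA was measured in 3 libraries of eye-antennal disc (EAD) cells, separated by GFP (by sorting, per the labels), 1 library for each group, each from 50 discs of wandering larvae at Day 6. The tumor library holds GFP+ cells of mosaic discs in which *ey-flp* makes clones homozygous for the *scrib2* allele on Frt82B. These clones lose the tubGal80 repressor, so that Act>y+>Gal4 drives UAS-RasV12 and UAS-GFP in them (*RasV12; scrib-/-*, in a *y,w* background). The tumor microenvironment (TME) library holds the GFP- cells of discs of that genotype, which can be any cell without GFP. The control library holds GFP+ cells of *GMR>GFP* discs, in which GMR-Gal4 labels cells behind the morphogenetic furrow, without *RasV12* or the *scrib2* allele. By its driver alone the control would stand for a differentiating part of the eye disc, whereas *ey-flp* is active across the EAD. Its marker levels, given below, include little of the photoreceptor genes and also hemocyte, neuronal and fat body genes. It is therefore not taken here as pure differentiating eye disc. Discs of many animals were pooled in each library, and with 1 library per group no difference has a replicate check and no test was run. In sorted bulk samples, a different share of a cell type and a different RNA level per cell cannot be told apart.

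Values are FPKM (fragments mapped to a gene, scaled by transcript length and by library depth), which set genes of different length side by side. The steps of low FPKM values put the tumor library at about 1835800 fragments, the TME library at 10987900 and the control library at 1759300, so that the TME values are the most precise. Ranges in brackets are exact 95% intervals from the estimated fragments, and they cover counting error only. The EAD genes *ey*, *so*, *eya* and *dac* lay between 14.1 and 66.0 FPKM in all 3 libraries, and *Ras85D* was at 327 FPKM in tumor cells, 118 in TME cells and 139 in control cells. The libraries differed in other cell types. The 7 hemocyte markers summed to 30.7 FPKM in tumor cells, 330 in TME cells and 346 in control cells, and none was at 0. *crq* made up most of the tumor sum, at 21.4 FPKM. The 6 neuronal markers summed to 15.9 FPKM in tumor cells, 20.5 in TME cells and 282 in control cells. The 6 photoreceptor markers summed to only 20.5 FPKM in control cells, against 26.1 in tumor cells and 46.5 in TME cells, with *boss* at 0 in tumor cells and *chp* at 1.92 FPKM in control cells, so the control cells show neuronal genes but little of these markers.

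All 8 integrin adhesion genes were expressed above 5 FPKM in all 3 libraries, between 7.80 FPKM (*if* in control cells) and 113 FPKM (*mys* in tumor cells). A gene was called different when the higher of its FPKM values exceeded 5 and the ratio of the values was 2 or more. By this rule *if* alone was called between tumor and control and between tumor and TME, in both cases as higher in tumor cells, and none of the 8 genes was called between TME and control. Among all genes tested 32.6% were called either way for tumor over control, 15.2% for tumor over TME and 21.7% for TME over control. The 1 of 8 genes called in each tumor comparison is thus no larger a share than in the table as a whole.

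**Figure D1:**
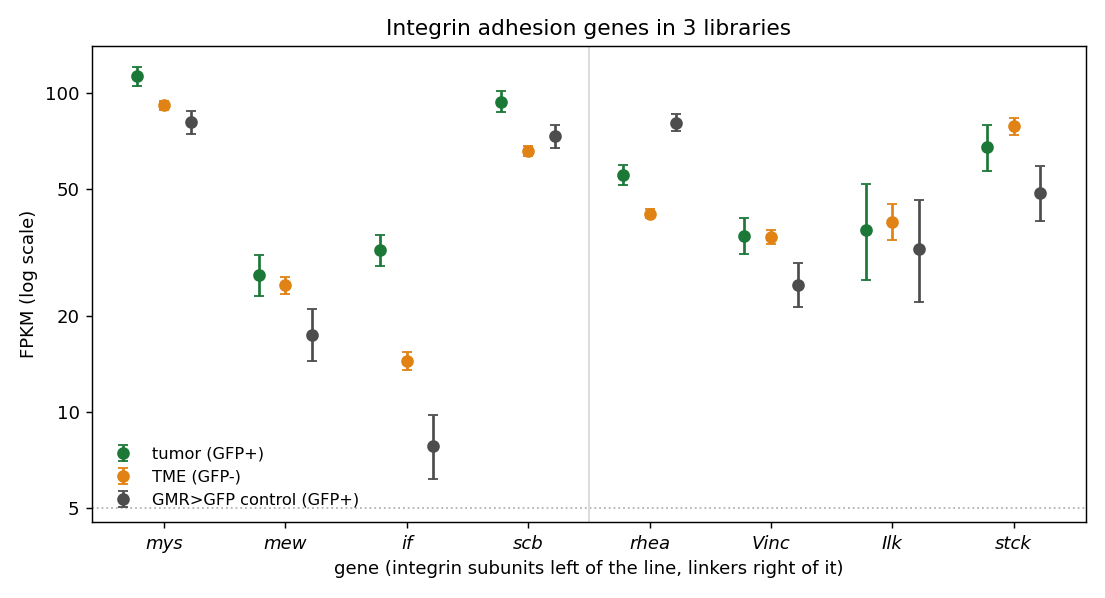
FPKM on a log scale of the 8 integrin adhesion genes in the tumor, TME and control libraries (1 library each), with exact 95% Poisson intervals from the estimated fragments as bars. *if* has the widest spread, with 32.0 FPKM in tumor cells, 14.4 in TME cells and 7.80 in control cells, and *rhea* is the gene with its highest value in control cells.

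The alpha subunit gene *if* was at 32.0 FPKM in tumor cells (28.6 to 35.7), 14.4 in TME cells (13.5 to 15.4) and 7.80 in control cells (6.15 to 9.77). The 3 intervals do not overlap. αPS2, which it encodes, is best known in the fly for muscle attachment and for joining the layers of the wing. The tumor level was 4.11 times that of the control (3.18 to 5.33) and 2.22 times that of the TME (1.95 to 2.52). The TME level was 1.85 times that of the control (1.46 to 2.36), short of the 2-fold rule. Against the TME the lower bound of the tumor ratio is below 2, and the call is lost with median ratio scaling, where the ratio is 1.95, and with upper quartile scaling, where it is 1.82. Among all tested genes the ratio of *if* was higher than that of 97.2% for tumor over control and 95.1% for tumor over TME. Ordered by FPKM from the highest, *if* held place 2647 in tumor cells, 4592 in TME cells and 6734 in control cells, a measure that needs no scaling between libraries. The antennal disc markers were also highest in tumor cells, *Dll* at 65.0 FPKM in tumor cells, 26.0 in TME cells and 14.8 in control cells, and *al* at 13.5, 10.4 and 9.80 FPKM. The ratios of *Dll*, 4.39 for tumor over control, 2.49 for tumor over TME and 1.76 for TME over control, lie close to those of *if*. Those of *al* were smaller, and *al* was not called in any comparison. The part of antennal cells in the level of *if* was not tested.

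The other alpha subunits differed less. *mew* was at 26.8 FPKM in tumor cells, 24.9 in TME cells and 17.4 in control cells. The tumor was 1.54 times above the control (1.22 to 1.98), and the tumor to TME ratio of 1.08 had an interval that spans 1 (0.918 to 1.27). Without scaling, a difference between the fractions of the mosaic discs was thus not detectable at this depth. The tumor to TME ratio was 0.884 with upper quartile scaling, below that interval. *scb* was the most abundant alpha subunit gene in every library, at 93.7 FPKM in tumor cells, 65.7 in TME cells and 72.9 in control cells. It was 1.43 times higher in tumor than in TME cells (1.31 to 1.55) and 1.29 times higher than in control cells (1.15 to 1.44). The tumor to TME ratio of *scb* was 1.26 with median ratio scaling and 1.17 with upper quartile scaling, both below its interval. The TME was slightly below the control for *scb*, with a ratio of 0.901 (0.821 to 0.989). The interval of *if* for tumor over control lies above those of *mew* and *scb*.

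*mys*, the gene of the only beta subunit that these 3 alpha subunits share, was the most abundant of the 8 genes in tumor cells at 113 FPKM and in TME cells at 91.1 FPKM. In the control it was at 80.6 FPKM, level with *rhea*. The tumor was 1.40 times above the control (1.25 to 1.56) and 1.24 times above the TME (1.14 to 1.33), and the TME 1.13 times above the control (1.03 to 1.24). Differences of this size were common, since the tumor to control ratio of *mys* was above that of only 72.4% of tested genes. Between tumor and TME the median ratio of all genes above 5 FPKM in both libraries was itself 1.14 (0.18 on the log2 scale), and relative to it the ratio of *mys* was 1.09. With upper quartile scaling it was 1.01.

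**Figure D2:**
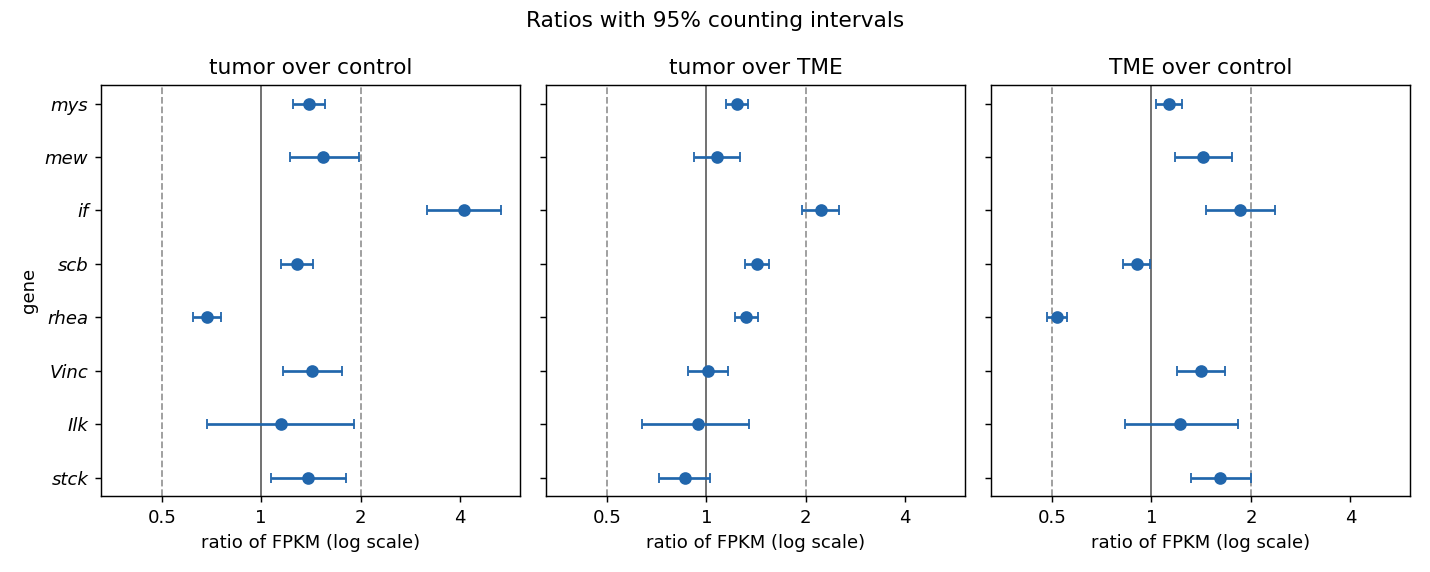
Ratios of FPKM on a log scale for the 8 genes in the 3 comparisons, with exact 95% Clopper-Pearson counting intervals as bars, a solid line at a ratio of 1 and dashed lines at 0.5 and 2. *if* lies above 2 in both tumor comparisons (4.11 and 2.22), and *rhea* is below 1 in both comparisons with the control (0.686 and 0.518).

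Read together, the alpha subunit genes had another make-up in each library. Of the summed FPKM of *scb*, *mew* and *if*, *if* made up 21.0% in tumor cells, 13.7% in TME cells and 7.95% in control cells. *mew* made up 17.6%, 23.7% and 17.7% in the same order, and *scb* 61.4%, 62.6% and 74.3%. In the tumor *if* was above *mew*, with a ratio of 1.19, whereas it was below *mew* in TME cells (0.580) and in control cells (0.448). In the tumor the intervals of the levels of *if* (28.6 to 35.7 FPKM) and *mew* (23.1 to 31.0 FPKM) overlap, so their order there is not set apart from counting error.

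The FPKM of *mys* over the summed FPKM of the 3 alpha subunit genes was 0.738 in tumor cells, 0.868 in TME cells and 0.821 in control cells. The summed alpha level was 153 FPKM in tumor cells, 105 in TME cells and 98.1 in control cells. These are RNA levels, and the amount of each dimer at the cell surface was not measured.

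**Figure D3:**
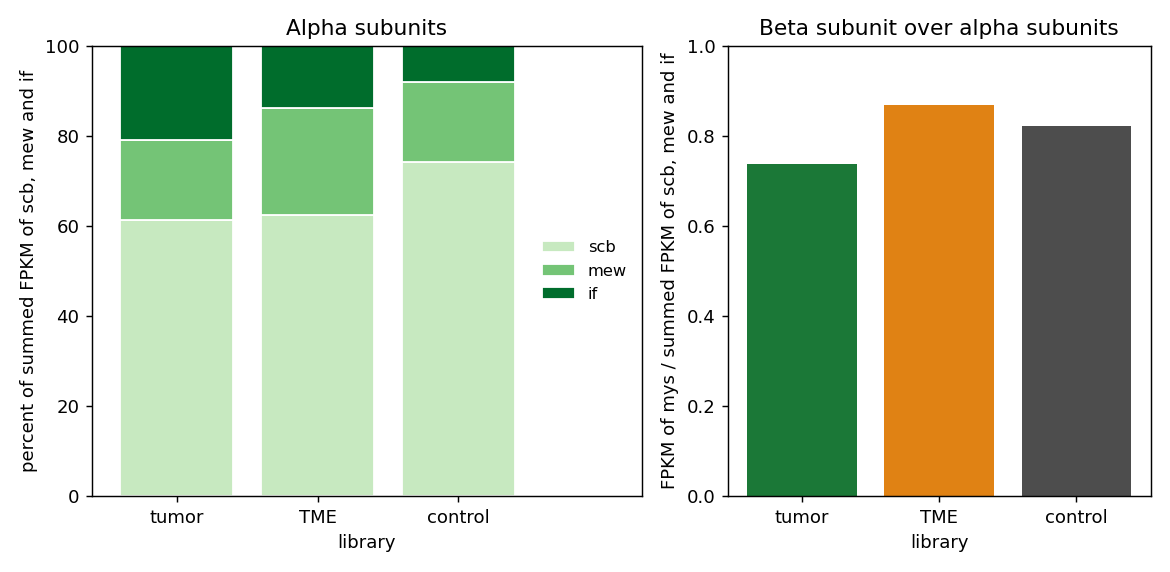
Left, percent of the summed FPKM of *scb*, *mew* and *if* that each gene makes up in the tumor, TME and control libraries, as stacked bars. Right, FPKM of *mys* divided by that sum. The *if* share is 21.0% in tumor cells, 13.7% in TME cells and 7.95% in control cells, while the *mys* ratio stays between 0.738 and 0.868.

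Among the linkers, *rhea* stood apart from the other genes. Talin, its product, is the adaptor that couples the beta subunit tail to actin and is needed for integrin adhesion throughout the fly. *rhea* was at 55.2 FPKM in tumor cells (51.3 to 59.4), 41.8 in TME cells (40.3 to 43.2) and 80.6 in control cells (75.7 to 85.7). It was 1.46 times lower in tumor than in control cells (1.33 to 1.61) and 1.93 times lower in TME than in control cells (1.80 to 2.07), both short of a 2-fold call. Within the mosaic discs it was 1.32 times higher in tumor than in TME cells (1.22 to 1.43). That ratio was 1.16 with median ratio scaling and 1.09 with upper quartile scaling, both below the interval. The FPKM of *rhea* over that of *mys* was 0.490 in tumor cells, 0.458 in TME cells and 1.00 in control cells. The neuronal markers were, like *rhea*, highest in control cells, with sums of 15.9 FPKM in tumor cells, 20.5 in TME cells and 282 in control cells. Between tumor and TME 5 of the 6 had a ratio below 1 and *futsch* a ratio of 1.09. Only *elav* was above 5 FPKM there, and its ratio of 0.86 had an interval that spans 1. That of *pros* was 0.611 (0.378 to 0.917). The direction of these markers between tumor and TME is thus mostly not set apart from counting error. The fat body markers were also highest in control cells, with sums of 0.253 FPKM in tumor cells, 2.17 in TME cells and 52.5 in control cells. The part of neuronal or fat body cells in the level of *rhea* was not tested.

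*Vinc*, which binds stretched talin, went the other way. It was at 35.6 FPKM in tumor cells, 35.2 in TME cells and 25.0 in control cells, with ratios of 1.43 for tumor over control (1.16 to 1.76) and 1.41 for TME over control (1.20 to 1.67). Between tumor and TME the ratio was 1.01 (0.878 to 1.16), and with upper quartile scaling it was 0.829, below that interval. *Vinc* and *mew* had the most similar profiles of any pair among the 8 genes, at a distance of 0.085 between their log2 values centred over the 3 libraries. *if* and *rhea* were the least similar pair, at 1.88.

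The genes of the ILK and PINCH complex showed small differences. *Ilk* was at 37.1 FPKM in tumor cells, 39.4 in TME cells and 32.4 in control cells, and the ratios of 1.15 (tumor to control), 0.942 (tumor to TME) and 1.22 (TME to control) all had intervals that span 1. Its intervals are wide because its shortest annotated transcript gives only about 35 fragments in tumor cells and 31 in control cells. They also span 1 with its longest transcript (0.858 to 1.51 for tumor over control). *stck* was at 67.3 FPKM in tumor cells, 78.4 in TME cells and 48.5 in control cells. It was 1.39 times higher in tumor than in control cells (1.07 to 1.81) and 1.62 times higher in TME than in control cells (1.32 to 2.00). Its tumor to TME ratio of 0.859, without scaling, had an interval that spans 1 (0.719 to 1.02). That ratio was 0.756 with median ratio scaling and 0.705 with upper quartile scaling, the latter below the interval. The FPKM of *stck* over that of *Ilk* was 1.81 in tumor cells, 1.99 in TME cells and 1.5 in control cells. That of *parvin*, the third gene of the complex, over *Ilk* was 0.772, 0.799 and 0.774 in the same order.

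In each library the order of the 8 levels began with *mys* and had *Ilk* followed directly by *Vinc*. In the tumor it ran *mys*, *scb*, *stck*, *rhea*, *Ilk*, *Vinc*, *if*, *mew*, where all neighbours from *stck* to *mew* had overlapping intervals. In the TME it ran *mys*, *stck*, *scb*, *rhea*, *Ilk*, *Vinc*, *mew*, *if*, and the neighbours whose intervals overlap were *rhea* with *Ilk* and *Ilk* with *Vinc*. In the control it ran *mys*, *rhea*, *scb*, *stck*, *Ilk*, *Vinc*, *mew*, *if*. There the intervals of *mys*, *rhea* and *scb* overlap, as do those of *stck* with *Ilk* and *Ilk* with *Vinc*. *if* was thus the lowest of the 8 genes in the TME and the control libraries, with an interval below that of *mew* in both.

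Against all genes tested, the 8 genes leaned to the tumor and the TME over the control. For tumor over control 7 of 8 had a ratio above 1, with a median log2 ratio of 0.48, while 48.8% of 7985 tested genes did, with a median of -0.02. For TME over control 6 of 8 had a ratio above 1, with a median of 0.39, against 42.5% of 7934 genes and a median of -0.13. For tumor over TME 6 of 8 did, with a median of 0.21, against 61.7% of 7294 genes and a median of 0.16. Among these 6, *mew* and *Vinc* change direction with median ratio scaling, to 0.949 and 0.890. The first and second of these comparisons share the control library and are not independent of each other. All 8 genes were above 5 FPKM in every library, whereas tested genes needed this in either library only. Among genes above 5 FPKM in both libraries the median log2 ratio was 0.08 for tumor over control, -0.05 for TME over control and 0.18 for tumor over TME. By direction, 12.4% of tested genes were called higher and 20.2% lower for tumor over control, and 6.53% higher and 8.72% lower for tumor over TME, against 1 of 8 higher (*if*) and 0 of 8 lower here in both. For TME over control 6.39% were called higher and 15.3% lower, against 0 of 8 in either direction. Over all chromosomes, the median log2 ratio for tumor over control was 0.03 for 1250 X-linked genes and 0.00 for 6267 autosomal genes.

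**Figure D4:**
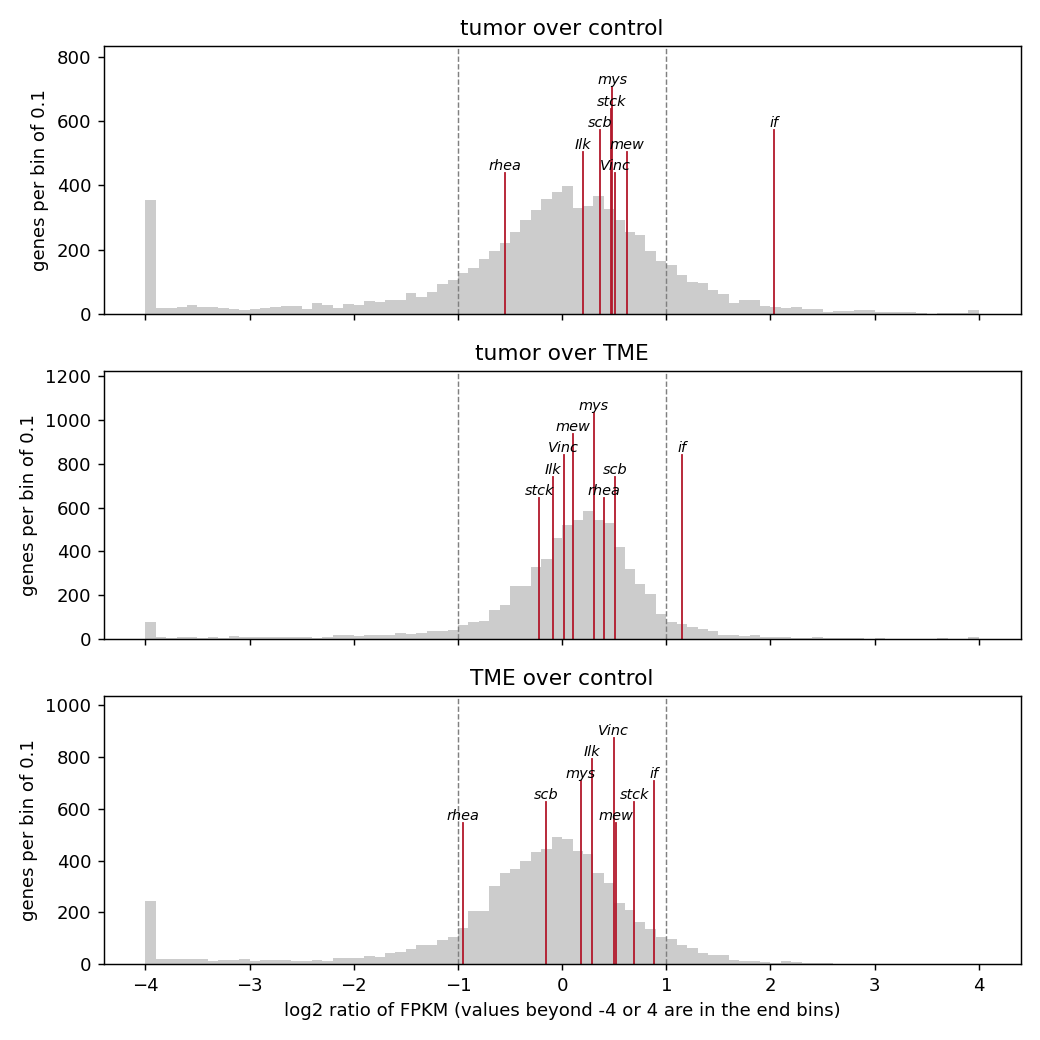
Number of genes by log2 ratio of FPKM, in bins of 0.1, for the 3 comparisons, over tested genes above 0 in both libraries, with the 8 integrin adhesion genes as red lines (their height carries no value) and dashed lines at a ratio of 2 in either direction. 7 of 8 genes lie inside the dashed lines for tumor over control and for tumor over TME, and 8 of 8 for TME over control, with *if* outside them in both tumor panels.

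The other 3 integrin subunit genes of the fly were low, and all had their lowest value in tumor cells. *ItgaPS5* (αPS5) was at 2.86 FPKM in tumor cells, 11.9 in TME cells and 5.52 in control cells. It was called lower in tumor than in TME cells (4.16-fold, 2.53 to 7.36) and higher in TME than in control cells (2.16-fold, 1.48 to 3.23). *Itgbn* (βν), the second beta subunit of the fly and a receptor for the uptake of apoptotic cells and bacteria by hemocytes, was at 0.341, 4.55 and 3.00 FPKM in tumor, TME and control, about 2 fragments in tumor cells and 16 in control cells. *ItgaPS4* (αPS4) had 1.45 FPKM in tumor, 2.65 in TME and 3.17 in control cells. The last 2 genes stayed under the floor of 5 FPKM. The hemocyte markers were also lowest in tumor cells, though *crq* was level between tumor and TME, with a ratio of 0.997 (0.764 to 1.29). *eater* was at 0.518 FPKM in tumor cells against 40.5 in TME cells and 43.0 in control cells. The part of hemocytes in these levels was not tested. In TME cells *ItgaPS5* and *Itgbn* were above their control levels, *Itgbn* with an interval that spans 1 (1.52-fold, 0.875 to 2.64). The hemocyte markers summed to 330 FPKM in TME cells against 346 in control cells, but they did not move together. *Hml* was called higher in TME cells, at 68.2 against 25.7 FPKM, while 5 of the 7 had a ratio below 1.

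Of 14 other linkers and regulators of integrin adhesion, 2 were called higher and 3 lower in tumor than in control cells, none was called between tumor and TME, and 2 were called lower in TME than in control cells. The shares over all tested genes were 32.6%, 15.2% and 21.7%, so that the count against the control was near the background for the tumor. The median log2 ratio was 0.25 for tumor over control, 0.18 for tumor over TME and -0.02 for TME over control, beside medians over all tested genes of -0.02, 0.16 and -0.13. *Fit2*, 1 of the 2 kindlin genes, was at 12.0 FPKM in tumor cells, 6.04 in TME cells and 4.69 in control cells (2.55-fold for tumor over control, 1.54 to 4.38). Kindlins bind the beta subunit tail beside talin. Its paralog *Fit1* was at 38.7, 38.0 and 40.0 FPKM, with a tumor to control ratio of 0.967 (0.795 to 1.18).

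*Zasp52*, whose product acts at muscle attachments and Z-discs, was at 73.1 FPKM in tumor cells, 58.8 in TME cells and 30.1 in control cells (2.43-fold for tumor over control, 1.68 to 3.51). Myoblast and muscle genes went in both directions. *sls* was at 12.1 FPKM in tumor cells and 3.36 in control cells, and *Mhc*, under the floor, at 4.42 and 1.29, but *htl* was at 0.815 and 13.7. Over the list of 8 myoblast and muscle markers 1 was called higher and 4 lower in tumor than in control cells. The sum of that list was 43.2 FPKM in tumor cells, 113 in TME cells and 126 in control cells, none of its genes was at 0, and its part in the levels of *Zasp52* and *if* was not tested.

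The genes called lower were *wech*, *Zyx* and *Src64B*. *wech*, which links talin to ILK in fly muscle, was at 20.8 FPKM in tumor cells, 20.5 in TME cells and 58.2 in control cells, 2.80 times lower in tumor cells (2.26 to 3.47) and 2.85 times lower in TME cells (2.49 to 3.25). *Src64B*, a Src family kinase gene, had the same pattern, with 22.3, 20.5 and 46.1 FPKM. *Zyx* (zyxin) was at 59.9, 91.4 and 142 FPKM, and it was 2.36 times lower in tumor than in control cells (1.98 to 2.84). *Fak* was also lower in both, at 13.9, 13.5 and 24.9 FPKM, without reaching 2-fold. Like *rhea*, these 4 genes were highest in the control library, which had the highest sums of both neuronal and fat body markers. The part of either cell type in their levels was not tested. The other Src family gene, *Src42A*, was at 137 FPKM in tumor cells, 90.8 in TME cells and 89.3 in control cells. *Pax* (paxillin) was at 128, 81.3 and 77.7 FPKM, and *Rap1*, a small GTPase that promotes integrin activation, at 135, 101 and 95.3 FPKM.

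Of 11 matrix genes, which include integrin ligands, 2 were called higher and 3 lower in tumor than in control cells, the same counts held for tumor over TME, and none was called for TME over control. Over all tested genes 32.6%, 15.2% and 21.7% were called in these comparisons. *Tig*, the gene of Tiggrin, a ligand of αPS2, was at 291 FPKM in tumor cells, 51.9 in TME cells and 37.6 in control cells, 7.72 times higher in tumor than in control cells (7.01 to 8.54) and 5.60 times higher than in TME cells (5.35 to 5.86). *Tsp* (thrombospondin), another αPS2 ligand, was at 66.2, 24.1 and 18.5 FPKM, with tumor ratios of 3.58 over the control (2.73 to 4.84) and 2.75 over the TME (2.35 to 3.22). *if* and both of these ligand genes were thus highest in the tumor library. *Tig* and *Tsp* are the 2 matrix genes called higher in tumor cells, and which other matrix genes encode αPS2 ligands was not examined. Among those others, the laminin alpha chain gene *wb* was not called, with a tumor to control ratio of 1.03. That *if*, *Tig* and *Tsp* are linked was not tested.

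The laminin genes showed another pattern. *LanA* was at 58.9 FPKM in tumor cells, 93.2 in TME cells and 85.9 in control cells, *LanB1* at 76.5, 112 and 90.4, and *LanB2* at 44.8, 73.8 and 67.3. All 3 were lowest in tumor cells by less than 2-fold, with tumor to control ratios of 0.685, 0.847 and 0.665. *wb*, the other laminin alpha chain, was at 9.94, 11.3 and 9.62 FPKM. *trol* (perlecan) was at 54.2, 44.5 and 41.5 FPKM and *Ndg* (nidogen), under the floor, at 0.491, 2.53 and 0.890 FPKM. The collagen IV genes were far lower in tumor cells, *vkg* at 3.24, 61.8 and 36.0 FPKM and *Col4a1* at 6.14, 87.9 and 54.8 FPKM, as was *SPARC* at 10.8, 187 and 183 FPKM. Collagen IV and SPARC are made by hemocytes and the fat body in the larva. All 7 hemocyte markers had a ratio below 1 in both tumor comparisons, and 6 of the 7 were called lower. The other was *crq*, whose tumor to TME ratio of 0.997 had an interval that spans 1. The 4 fat body markers summed to 0.253 FPKM in tumor cells, 2.17 in TME cells and 52.5 in control cells, with 3 of them at 0 in tumor cells. The part of either cell type in the collagen levels was not tested.

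**Figure D5:**
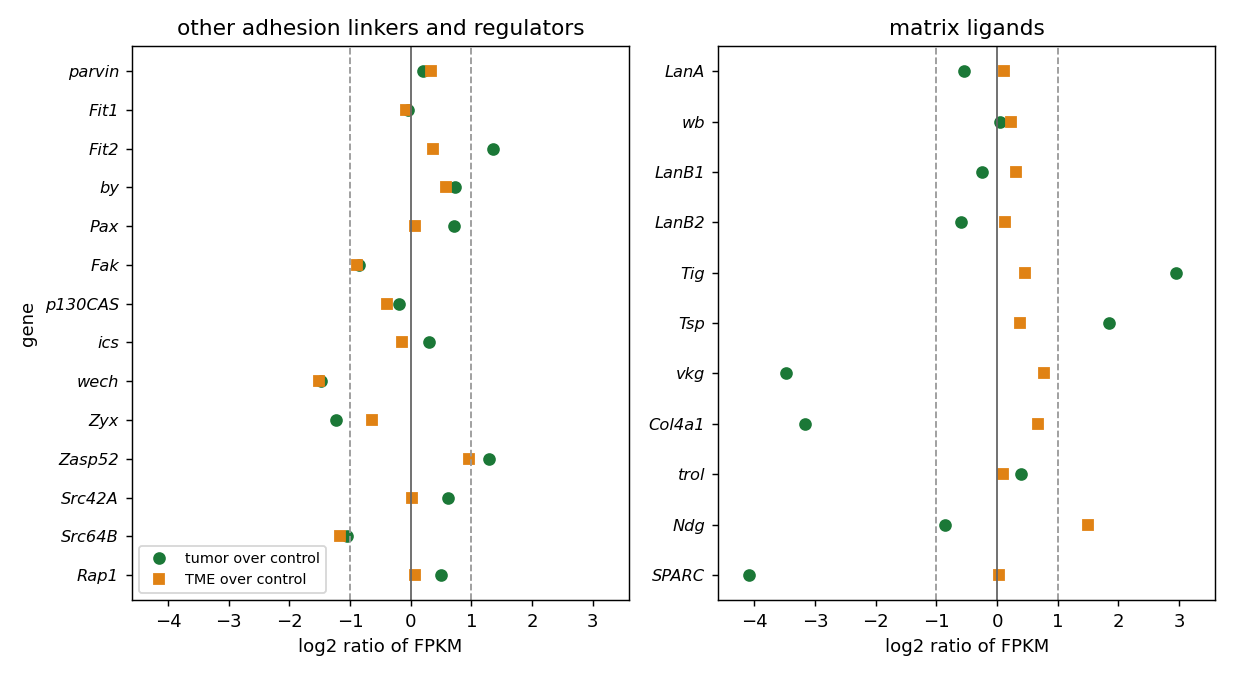
Log2 ratios of FPKM for tumor over control (circles) and TME over control (squares) of 14 other linkers and regulators (left) and 11 matrix genes (right), with dashed lines at a ratio of 2 in either direction. Both comparisons share the control library. *Tig* and *Tsp* lie right of the dashed line in tumor cells and inside it in TME cells, and *vkg*, *Col4a1* and *SPARC* far left of it in tumor cells only. *Ndg* is past the line in TME cells but stays under 5 FPKM.

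The profile of *mys* over the libraries was a common one. Of 6153 other genes above 5 FPKM in all 3 libraries, 199 lay within a distance of 0.1 of it on centred log2 values. The nearest 3 were *AP-47* at 49.1, 39.5 and 35.0 FPKM in tumor, TME and control, *Mcm5* at 54.3, 44.2 and 39.1 FPKM, and *Nup107* at 26.7, 21.6 and 19.2 FPKM. With 3 libraries such likeness rests on 3 values per gene.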

How the data were processed

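RNA of 3 sorted cell pools was sequenced. The sample labels give FACS and Trizol, and the methods of the paper give manual isolation and Qiagen kits. The authors prepared TruSeq libraries, ran them on a MiSeq, mapped reads with the Tuxedo suite and deposited FPKM per gene. Its version and its gene annotation: not given in the sources used here. All 3 value columns were matched to samples by heading.

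Depth was fitted from the steps of FPKM of genes with 1 transcript of 400 to 4000 nt in the Ensembl 115 annotation of BDGP6, a later build than the one used for mapping. Of low values, 83.2% (tumor), 78.7% (TME) and 82.0% (control) lay within 0.1 of a whole fragment, where chance gives 20%. Fragments per gene used the shortest transcript. Lengths came by identifier for 7 of the 8 genes, and by symbol for *scb*. Reads of overlapping genes cannot be told apart without strand. Exons of *mew*, *scb*, *rhea* and *stck* share up to 107 nt with another annotated gene.

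Calls needed FPKM above 5 and a ratio of at least 2, and genes above 5 FPKM in either library were tested. The alternatives were ratios of 1.5 and 3, no floor and floors of 1 and 10 FPKM, pseudocounts of 0.1 and 1, and 3 scalings. The members, lists and thresholds were chosen with earlier results of these data known. Named genes are the 8 members, listed genes that passed the rule or account for a list, and the 3 genes most like *mys*. The 3 adhesion lists and 10 marker lists were written from textbook knowledge; those for trachea, glia, antennal disc and genotype are summarized in the closing section. The steps were tested on simulated data. Scripts ran in Python 3.11.15 with pandas 2.3.3, scipy 1.17.1, matplotlib 3.10.9 and numpy 2.4.6.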

Additional observations from a re-analysis of the deposited data

How the results depend on the processing

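No paired analysis was possible because each group has 1 library, and for the same reason no library could be left out. The call of *if* for tumor over control held under every alternative tried (ratio, floor, pseudocount, scaling), and with a ratio of at least 1.5 the count was 2 of 8, *mew* being added. For tumor over TME the count of 1 fell to 0 with a ratio of at least 3, with median ratio scaling and with upper quartile scaling, where *if* was 1.95 and 1.82 times higher. For TME over control the count of 0 became 3 with a ratio of at least 1.5 (*if* and *stck* higher, *rhea* lower) and 1 with upper quartile scaling (*if*). The cause of these changes is the threshold or the scaling itself, which divides tumor to TME ratios by 1.14 or 1.22 and TME to control ratios by 0.902. Of 120 recomputed ratios of single genes, 13 left their counting interval and 0 of a called gene changed direction. With *ItgaPS4* and *ItgaPS5* counted, the TME shares were 20.8% for *mew*, 12.1% for *if* and 54.9% for *scb*, and the control share of *scb* was 68.3%. The tumor share of *scb* was then 59.7%, above that of the TME, whereas with 3 alpha subunits it was 61.4% against 62.6%. On this count *mys* over alpha subunits was 0.718 in tumor cells, 0.762 in TME cells and 0.754 in control cells. Fragments from the longest transcript moved none of 48 interval bounds across 1. Counting intervals say nothing of the spread between preparations.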

Other observations

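In the BDGP6 annotation the gene that follows *scb* on its chromosome is *ItgaPS4*, another alpha subunit gene. The neighbours had unlike levels: *scb* was at 93.7 FPKM in tumor cells, 65.7 in TME cells and 72.9 in control cells, and *ItgaPS4* at 1.45, 2.65 and 3.17 FPKM, where it was lowest in tumor cells, on about 9 fragments there and 18 in control cells.

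Other marker lists did not follow one direction. The antennal genes *Dll* and *al* summed to 78.5 FPKM in tumor cells, 36.5 in TME cells and 24.6 in control cells, the tracheal list to 296, 360 and 81.7 FPKM with *Gasp* making up most of it, and the glial list to 222, 198 and 214 FPKM. *nrv2* made up most of the glial sums, at 166, 133 and 123 FPKM. Of the 5 glial genes 1 was called higher and 2 lower for tumor over control, with *repo* at 3.06, 12.1 and 27.5 FPKM and *moody* at 20.6, 9.69 and 9.89 FPKM. Of the tumor checks, *cher* (filamin) was at 188, 83.6 and 33.2 FPKM, *Mmp1* at 285, 122 and 106 FPKM and *scrib* at 51.0, 44.6 and 36.2 FPKM.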
